A study of Caenorhabditis elegans with 8 samples.

Results

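The transthyretin-like (ttr) genes of Caenorhabditis elegans were followed through 8 RNA sequencing libraries of whole young adult worms. The members were all genes of the coding count table whose WormBase symbol is ttr- and a number, with ttr-44 left out, which gave 57 of the 20182 genes in the table. In the libraries labelled rege-1 RNAi, synchronized larvae of the laboratory wild type N2 or of the strain glp-1 (e2141) received bacterial food carrying RNA that targets rege-1, a gene for a protein with an RNase domain. In the mock libraries the same strains were fed a mock control. The groups were glp-1 RNAi, glp-1 mock, N2 RNAi and N2 mock, with 2 libraries each. All animals were grown to young adulthood and carried no other named allele. The glp-1 worms were kept at 25 °C, which the labels call restrictive, and no temperature is given for N2, so that genotype and temperature cannot be told apart in any comparison of the strains. Whether the 2 libraries of a group came from separate cultures is not said in the labels, and p-values then measure a spread that may be technical.

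Vertebrate transthyretin is a secreted carrier of thyroid hormone and, through a partner, of retinol. Nematodes have a large family of their own, the transthyretin-like proteins, which are small, mostly secreted proteins with a related fold. Few of them have a described role. TTR-52 is secreted by intestinal cells and bridges phosphatidylserine on the surface of dying cells to the engulfment receptor CED-1. TTR-33 protects dopamine neurons against oxidative damage.

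The members were short genes. Coding length, the width column of the deposited table, ran from 354 to 1221 bases with a median of 432, against a median of 1008 for all genes, and the summed introns ran from 22 to 1323 bases. In the Ensembl annotation of assembly WBcel235 all 57 were protein coding. Of these 21 lay on chromosome V, 12 on X, 10 on IV, 9 on III, 3 on I and 2 on II, and 27 were on the plus strand and 30 on the minus strand. Members often sat beside each other: 29 of them formed 17 pairs with at most 1 other coding gene between. One run on chromosome V held ttr-24 (18555387 to 18556643, minus strand), ttr-25 (18556714 to 18558099, plus strand) and ttr-26 (18558758 to 18560288, minus strand), and a pair on chromosome IV held ttr-51 (13250655 to 13252311, minus strand) and ttr-45 (13254225 to 13255538, plus strand). On chromosome X, ttr-36 (6510927 to 6512195) and ttr-35 (6512285 to 6512918) were followed on the same strand by ets-4, which encodes an ETS family transcription factor, 5964 bases past the end of ttr-35 with no other coding gene between. The annotated span of 16 members overlapped another coding gene, among them ttr-7, ttr-16, ttr-33, ttr-47 and ttr-51. Use of strand in the counting is not given in the sources used here, and copies of near-identical sequence were not looked for, so counts of such members are uncertain.

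Library totals were 26127079 to 30093967 coding counts. The targeted gene rege-1 was higher and not lower in the libraries labelled RNAi, with 1950 and 1891 counts in glp-1 RNAi and 495 and 480 in glp-1 mock, and 2664 and 2137 in N2 RNAi and 396 and 354 in N2 mock. A loss of rege-1 RNA was not visible in these counts, and the RNAi libraries are named here as their labels name them. The Notch receptor GLP-1 holds germline stem cells in division, and markers of the germline were still present in the glp-1 worms: 16 germline and oocyte genes summed to 4232 to 4335 CPM in glp-1 RNAi and 4034 to 4196 in glp-1 mock, and to 5725 to 5972 in N2 RNAi and 4795 to 5992 in N2 mock. CPM here is a count divided by its library total, brought to a fixed total and scaled between libraries by the TMM method of edgeR.

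Replicates of the RNAi groups differed in the level of the family. In N2 RNAi 42 of the 53 members tested had a lower CPM in replicate 2 than in replicate 1 (median log2 difference -0.37), and in glp-1 RNAi 44 of 53 did (median -0.27). In N2 mock 23 of 53 were lower in replicate 2 (median 0.07) and in glp-1 mock 33 of 53 (median -0.04). Over all genes tested the median difference lay between -0.01 and 0.00 in each group. The summed level of all members was 3832 and 3133 CPM in glp-1 RNAi and 3905 and 3863 in glp-1 mock, and 2624 and 2045 CPM in N2 RNAi against 3030 and 3145 in N2 mock. N2 RNAi replicate 2 had the lowest sum.

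**Figure D1:**
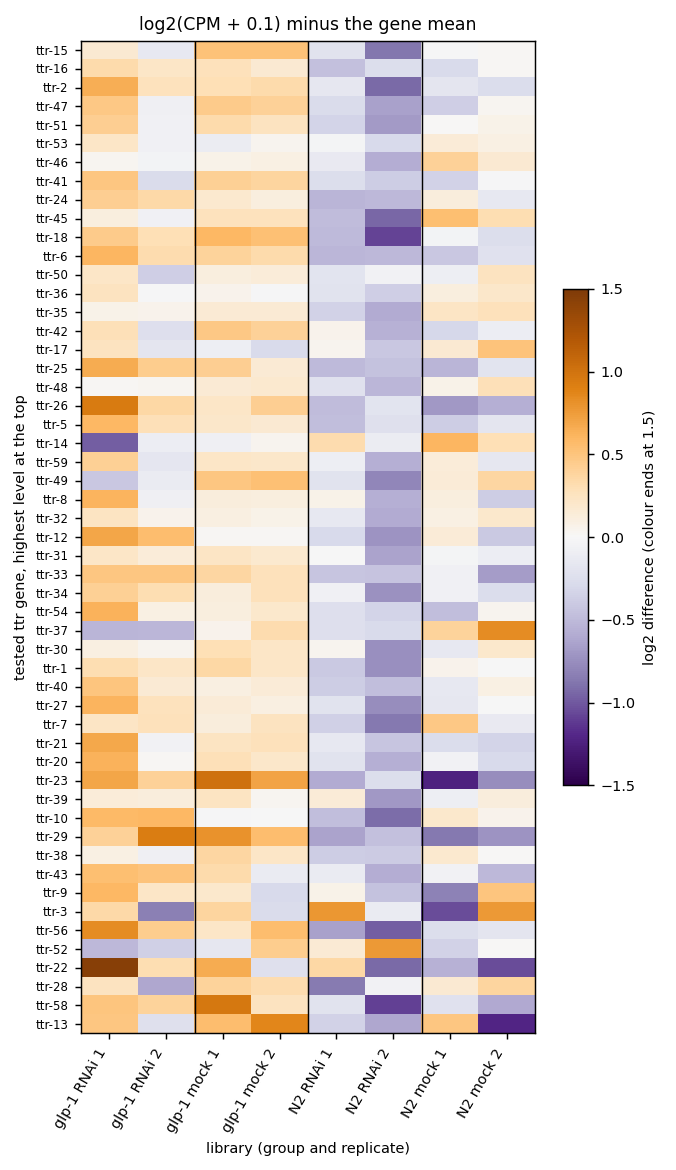
Level of each tested ttr gene (rows, highest at the top) in each of the 8 libraries (columns), as log2(CPM + 0.1) minus the mean of the gene. Orange is above and purple below the mean of the gene. The N2 RNAi replicate 2 column is the most purple, and the glp-1 columns are mostly orange.

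One gene, ttr-15, gave the largest share of the family's counts in all 8 libraries. Scaled to coding length, ttr-15 (WBGene00011561, chromosome III from 10337847 to 10339440, plus strand) averaged 2380 CPM per kb over the 8 libraries, and it held 24.1 to 33.5% of the members' counts in a library. Its level was 1015 and 809.9 CPM in glp-1 RNAi and 1293 and 1294 in glp-1 mock, and 779 and 493 CPM in N2 RNAi against 887 and 913 in N2 mock. The next in order were ttr-16 with a mean of 783 CPM per kb, ttr-2 with 592, ttr-47 with 327 and ttr-51 with 278. Over the 8 libraries ttr-15 ran from 1254 to 3293 CPM per kb and did not overlap ttr-16, which ran from 559.6 to 966. The ranges of ttr-16 and ttr-2 (296 to 884) overlapped, as did those of ttr-47 (201 to 439) and ttr-51 (168 to 364.5). At the low end, 4 members did not pass the filter on low counts and were not tested. These were ttr-11 with 0 to 3 counts in a library, ttr-55 with 1 to 4, ttr-19 with 4 and 3 counts in 2 N2 libraries and 0 in the other 6, and ttr-57 with 2 and 1 counts in 2 libraries and 0 in the other 6. A count of 0 allows up to 3 counts, which is 0.093 to 0.117 CPM in these libraries, with counting error only.

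**Figure D2:**
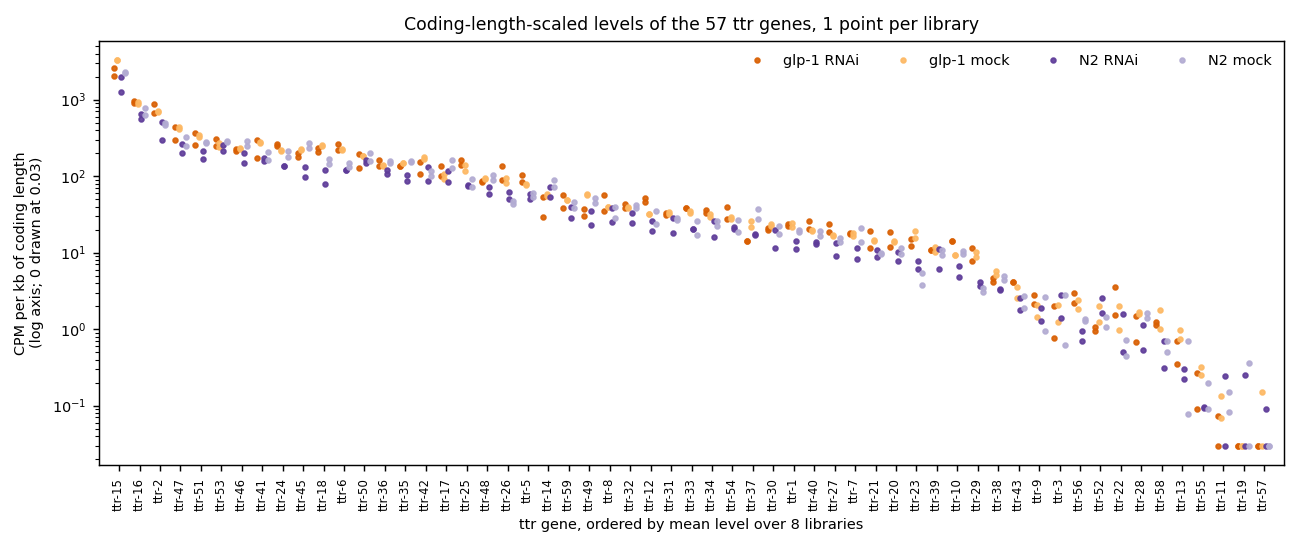
Coding-length-scaled level (CPM per kb, log axis) of each of the 57 ttr genes, 1 point per library, coloured by group. Counts of 0 are drawn at 0.03. The gene ttr-15 stands above the rest, and ttr-11, ttr-19, ttr-55 and ttr-57 are lowest.

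With rege-1 RNAi in N2, 5 members fell and 0 rose among 53 tested, which is 9.43% of them called lower against 1.66% of all 15321 genes tested (3.13% of them called higher and 4.79% called in either direction). A gene was called at an adjusted p under 0.05 in edgeR's quasi-likelihood test with Benjamini-Hochberg adjustment over all genes. The 5 were ttr-45, ttr-35, ttr-37, ttr-24 and ttr-46. At an unadjusted p under 0.05 edgeR found 1 higher and 16 lower, and DESeq2 and limma each called 9 lower and 0 higher. Shares of all genes under these other rules are not given, here or in the comparisons below. Such counts therefore do not show whether the members differ from other genes. The change was below 0 for 46 of the 53 members (52.1% of all genes), with a median log2 change of -0.30 against -0.01 over all genes. In 23 members both RNAi libraries lay below both mock libraries and in 4 above them, with 21.8% and 19.4% of all genes doing so.

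The clearest fall was that of ttr-45 (WBGene00044737), which had 56.0 and 40.9 CPM in N2 RNAi against 114.7 and 97.8 CPM in N2 mock (log2 change -1.13, SE 0.16, adjusted p = 0.00112 by edgeR). It kept its call with every library left out and under every alternative run. Its neighbour ttr-51 had 89.7 and 70.2 CPM in N2 RNAi and 113 and 118 in N2 mock and was not called (log2 -0.53, adjusted p = 0.155). The gene ttr-35 (WBGene00017688), next to ets-4, had 45.1 and 38.2 CPM in N2 RNAi and 67.4 and 69.5 in N2 mock (log2 -0.72, SE 0.12, adjusted p = 0.00431). On its other side ttr-36 had 46.2 and 41.3 CPM in N2 RNAi and 57.7 and 61.3 in N2 mock and was not called (log2 -0.44, adjusted p = 0.103). The neighbour ets-4 itself moved the other way, with 78.4 and 109 CPM in N2 RNAi and 18.1 and 21.2 in N2 mock (log2 2.25, SE 0.17, adjusted p = 8.56e-06).

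The gene ttr-37 (WBGene00017667, chromosome X from 1335364 to 1337175, minus strand) had 7.81 and 7.56 CPM in N2 RNAi against 12.2 and 16.7 CPM in N2 mock (log2 -0.91, SE 0.20, adjusted p = 0.0184). In ttr-24 (WBGene00013077) the values were 57.2 and 58.4 CPM in N2 RNAi and 90.8 and 75.1 in N2 mock (log2 -0.52, SE 0.13, adjusted p = 0.0434), and in ttr-46 (WBGene00011571, chromosome V from 9951233 to 9952178, plus strand) they were 108 and 79.2 in N2 RNAi and 156 and 132.5 in N2 mock (log2 -0.63, SE 0.16, adjusted p = 0.0452). In all 5 the groups did not overlap. The member nearest above the threshold was ttr-10, with 3.34 and 2.42 CPM in N2 RNAi and 5.33 and 4.82 in N2 mock (log2 -0.82, adjusted p = 0.0514).

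These calls depended on single libraries. Without N2 RNAi replicate 2, 1 member was called, ttr-45, and the median of the members was -0.14. Without N2 RNAi replicate 1, 8 were called and the median was -0.52. Without N2 mock replicate 1 or 2, or glp-1 mock replicate 1 or 2, 3 members were called each time, and without glp-1 RNAi replicate 1 or 2, 8 each time. The call on ttr-35 ended without N2 RNAi replicate 2 (adjusted p = 0.0801). That on ttr-37 ended when N2 mock replicate 2 was left out (0.142), and likewise for N2 RNAi replicate 1 (0.0753) or 2 (0.132). That on ttr-24 ended in the absence of N2 mock replicate 1 (0.269), of either N2 RNAi replicate (0.193 and 0.241) and of either glp-1 mock replicate (0.135 and 0.116). That on ttr-46 ended in the absence of either N2 mock replicate (0.312 and 0.0764), of N2 RNAi replicate 2 (0.459) and of either glp-1 mock replicate (0.114 and 0.1004).

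**Figure D3:**
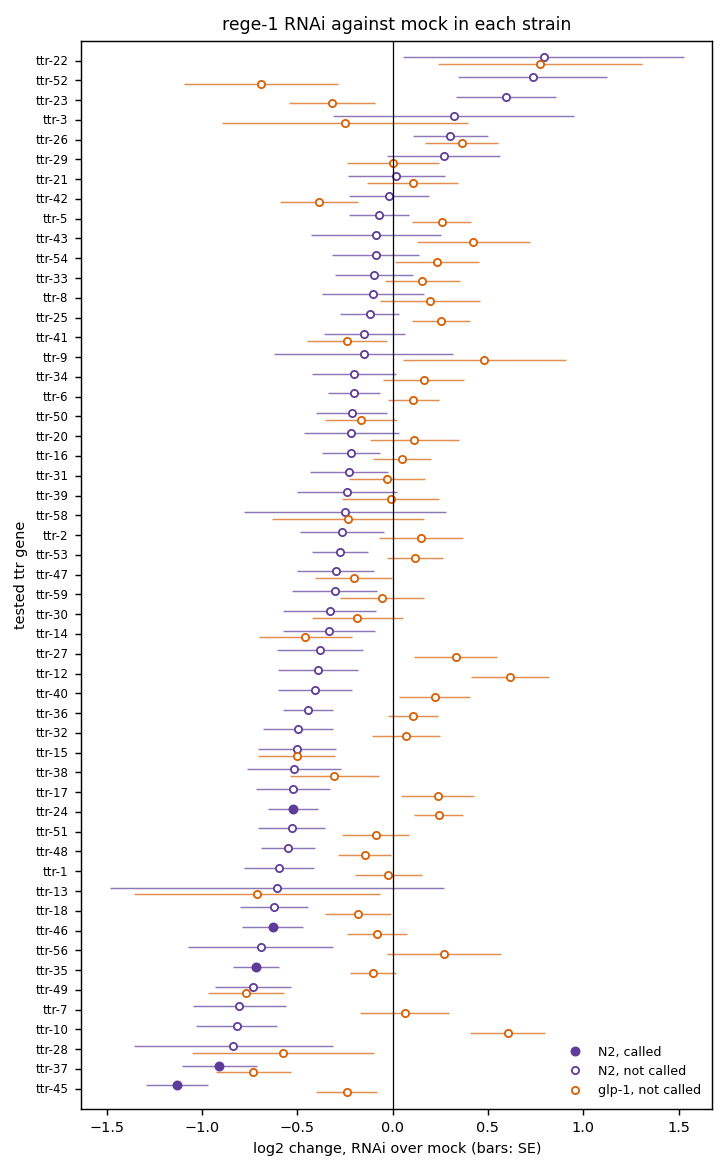
Log2 change of each tested ttr gene with rege-1 RNAi against mock in N2 (purple) and in glp-1 (orange), with its standard error. Filled points passed the threshold and open points did not. The 5 filled points are ttr-45, ttr-37, ttr-35, ttr-46 and ttr-24 in N2, all left of 0.

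With rege-1 RNAi in glp-1, 0 of the 53 members were called by edgeR, where 2.7% of all genes were called in either direction (1.89% higher and 0.816% lower). Of the members 5 had an unadjusted p under 0.05, DESeq2 called 2, ttr-49 and ttr-37, and limma on the deposited log2 values called 0. The change was below 0 for 26 members and above 0 for 27, against 50.7% and 49.2% of all genes, with a median of 0.00 on the log2 scale. The split was 27 below and 26 above under RLE scaling, library size alone or removal of the coding length trend. In 16 members both glp-1 RNAi libraries lay below both glp-1 mock libraries and in 11 above them, against 21.8% and 23.4% of all genes. The lowest adjusted p was that of ttr-49 (WBGene00023485, chromosome V from 9355505 to 9356515, minus strand), which had 15.8 and 19.4 CPM in glp-1 RNAi against 29.4 and 30.5 CPM in glp-1 mock (log2 -0.77, SE 0.20, adjusted p = 0.0763). The groups did not overlap, and the call was made without N2 RNAi replicate 1 (0.0312) or 2 (0.0303) or glp-1 RNAi replicate 2 (0.0372). Without glp-1 RNAi replicate 2, 3 members were called, ttr-49 and ttr-14 lower and ttr-26 higher. In ttr-45 the values were 84.8 and 74.8 CPM in glp-1 RNAi and 94.6 and 93.9 in glp-1 mock (log2 -0.24, adjusted p = 0.658), and in ttr-35 59.9 and 59.7 in glp-1 RNAi and 64.2 and 64.1 in glp-1 mock (log2 -0.10, adjusted p = 0.822). The neighbour ets-4 rose in glp-1 as well, with 70.5 and 80.3 CPM in glp-1 RNAi and 20.3 and 19.35 in glp-1 mock (log2 1.93, SE 0.17, adjusted p = 3.85e-05 by edgeR).

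The difference of the RNAi effect between the strains, glp-1 minus N2, was called for 0 of the 53 members by edgeR, DESeq2 and limma, and 15 had an unadjusted p under 0.05 in edgeR. Over all genes 0.0261% were called. The difference was above 0 for 42 members (48.4% of all genes), with a median of 0.31. After each library was corrected for its trend with coding length, 37 were above 0 and the median was 0.18. Without N2 RNAi replicate 2, 36 were above 0 with a median of 0.22, without glp-1 RNAi replicate 1, 35 with a median of 0.17, and without N2 RNAi replicate 1, 45 with a median of 0.55. The lowest adjusted p was that of ttr-10, at 0.238. This gene had 7.02 and 7.05 CPM in glp-1 RNAi and 4.62 and 4.64 in glp-1 mock, with the N2 RNAi libraries below the N2 mock libraries as given above (difference 1.42 on the log2 scale, SE 0.29). For ttr-45 the difference was 0.89. Without glp-1 RNAi replicate 2 the difference was called for 1 member, ttr-24.

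Averaged over both strains, 4 members fell with RNAi and 0 rose, which is 7.55% called lower against 2.34% of all genes (3.93% called higher and 6.27% in either direction). The change was below 0 for 38 members (52.8% of all genes), with a median of -0.14. At an unadjusted p under 0.05 edgeR found 1 higher and 13 lower, and DESeq2 and limma each called 6 lower and 0 higher. The 4 were ttr-45 (log2 -0.69, SE 0.11, adjusted p = 0.00247), ttr-37 (log2 -0.82, SE 0.14, adjusted p = 0.00298), ttr-49 (log2 -0.75, SE 0.14, adjusted p = 0.00584) and ttr-35 (log2 -0.41, SE 0.09, adjusted p = 0.0125). The changes of ttr-49 in the strains were of like size, with 18.3 and 12.1 CPM in N2 RNAi against 23.4 and 27.2 in N2 mock (log2 -0.73, SE 0.20, adjusted p = 0.0679) beside the glp-1 values above. For ttr-37 the glp-1 values were 6.36 and 6.43 CPM in glp-1 RNAi and 9.64 and 11.6 in glp-1 mock (log2 -0.73, adjusted p = 0.101). The calls on ttr-45, ttr-37 and ttr-49 held with every library left out, and that on ttr-35 ended without N2 RNAi replicate 2 (adjusted p = 0.0817) or glp-1 mock replicate 1 (0.0989) or 2 (0.0895). The count was 8 without N2 RNAi replicate 1 and 6 without glp-1 RNAi replicate 1 or 2. The most abundant member, ttr-15, was nearest above the threshold (log2 -0.50, SE 0.14, adjusted p = 0.0708), with a change of -0.50 in each strain.

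**Figure D4:**
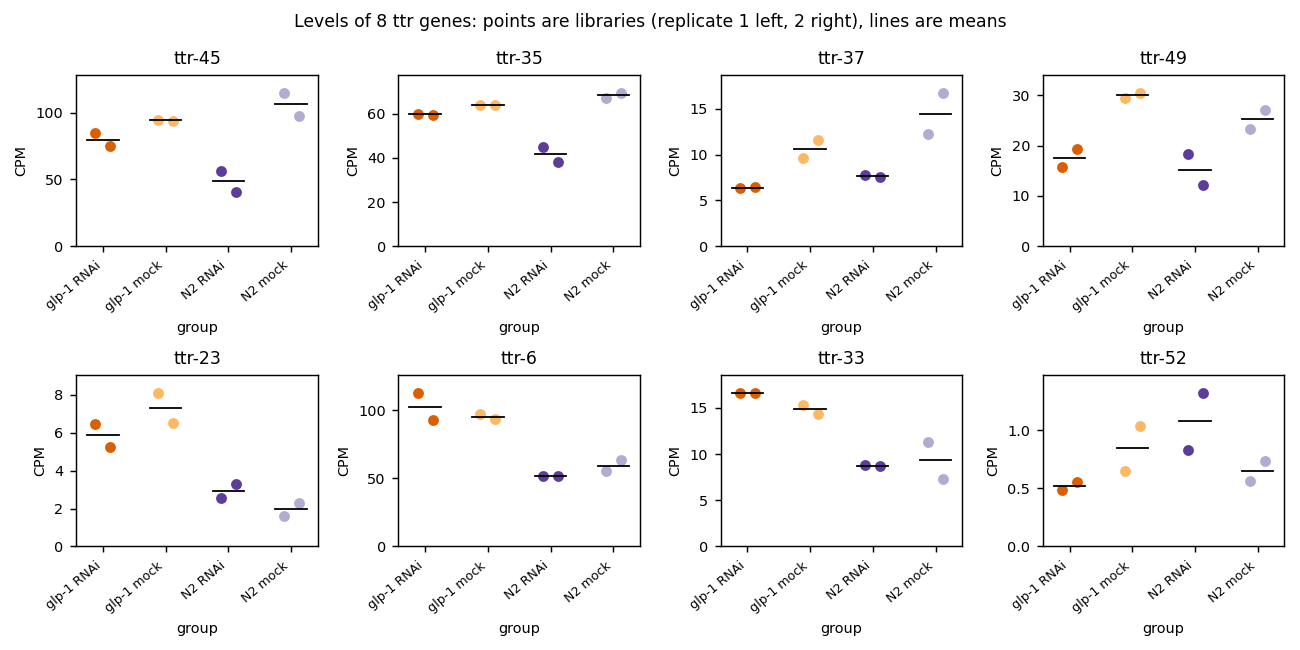
CPM of 8 ttr genes in each library, by group (RNAi left of mock in each strain, glp-1 left of N2). Points are libraries and black lines are means of 2. In ttr-45 and ttr-35 the N2 RNAi libraries are the lowest, in ttr-37 and ttr-49 both RNAi groups lie below their mock groups, and in ttr-23, ttr-6 and ttr-33 the glp-1 groups lie above the N2 groups.

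Members were higher in glp-1 than in N2 more often than lower. Under mock, 6 of 53 were called higher (11.3%, against 6.49% of all genes) and 0 lower (3.24% of all genes, and 9.73% called in either direction), with a median log2 change of 0.26 against 0.00 over all genes. In 32 members both glp-1 mock libraries were above both N2 mock libraries and in 9 below, against 32.6% and 30.3% of all genes. The change was above 0 for 40 members (50.2% of all genes). At an unadjusted p under 0.05 edgeR found 16 higher and 2 lower, DESeq2 called 8 higher and 0 lower, and limma 10 higher and 0 lower. The largest of the called changes was that of ttr-23 (WBGene00011894, chromosome V from 10589092 to 10589860, minus strand), which had 8.09 and 6.53 CPM in glp-1 mock against 1.61 and 2.29 CPM in N2 mock (log2 1.91, SE 0.25, adjusted p = 0.000611). Next was ttr-29 (WBGene00011286, chromosome V from 12906128 to 12906832, minus strand), with 3.66 and 3.08 CPM in glp-1 mock and 1.09 and 1.21 in N2 mock (log2 1.56, SE 0.27, adjusted p = 0.00444). Its neighbour ttr-28 had 0.589 and 0.552 CPM in glp-1 mock and 0.4905 and 0.583 in N2 mock (log2 0.09) and was not called. Of the run on chromosome V, ttr-26 (log2 0.96, adjusted p = 0.0115) and ttr-25 (log2 0.66, adjusted p = 0.0219) were called and ttr-24 was not (log2 0.15). The other 2 called were ttr-6 (log2 0.68, adjusted p = 0.01003) and ttr-18 (log2 0.71, adjusted p = 0.0292).

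The call on ttr-23 under mock held with every library left out. The call on ttr-29 ended without N2 mock replicate 1 (adjusted p = 0.0575) or glp-1 mock replicate 1 (0.0529). The other 4 each ended without 3 or 4 of the mock libraries in turn, with ttr-18 losing its call without any of them (0.0918 to 0.179). The count was 2 without N2 mock replicate 1 or either glp-1 mock library, 4 without N2 mock replicate 2, and 11 without either glp-1 RNAi library.

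Under RNAi, 23 of 53 members were called higher in glp-1 (43.4%, against 10.6% of all genes) and 0 lower (7.54% of all genes, and 18.1% called in either direction). At an unadjusted p under 0.05 edgeR found 35 higher and 2 lower, DESeq2 called 24 higher and 0 lower, and limma 32 higher and 0 lower. In 37 members both glp-1 RNAi libraries lay above both N2 RNAi libraries and in 2 below them, against 32.2% and 29.3% of all genes. The median log2 change of the 53 was 0.68 against 0.02 over all genes, and 49 were above 0 (51.6% of all genes). Called changes ran from 0.52 for ttr-35 to 1.63 for ttr-56. The N2 RNAi libraries enter this comparison and that of RNAi with mock in N2, so the low N2 RNAi replicate 2 touches both. Without it 7 members were called and the median was 0.52, and without glp-1 RNAi replicate 1, the higher library of its group, 12 were called and the median was 0.42. The 2 strain comparisons have no library in common, but they were fitted together with a shared estimate of the spread, and genotype goes with temperature in both. All 6 members called under mock were also called under RNAi, which is 100% of the list under mock and 26.1% of the list under RNAi. The overlap over all genes is not given here, so this overlap is not read as a result about the members.

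The lowest adjusted p under RNAi was that of ttr-6 (WBGene00020886, chromosome X from 6596425 to 6597121, minus strand), which had 112 and 92.5 CPM in glp-1 RNAi against 51.4 and 51.7 CPM in N2 RNAi (log2 0.99, SE 0.14, adjusted p = 0.000961). Under mock its values were 96.8 and 93.3 CPM in glp-1 and 55.2 and 63.5 in N2. All 3 members of the run on chromosome V were called under RNAi, ttr-24 (log2 0.91, adjusted p = 0.00132), ttr-25 (log2 1.03, adjusted p = 0.00178) and ttr-26 (log2 1.02, adjusted p = 0.00726). In ttr-18 (WBGene00007142, chromosome II from 11485510 to 11486748, minus strand) the values were 98.0 and 88.0 CPM in glp-1 RNAi and 50.6 and 33.6 in N2 RNAi (log2 1.15, SE 0.18, adjusted p = 0.00222). The gene ttr-10 had 7.02 and 7.05 CPM in glp-1 RNAi and 3.34 and 2.42 in N2 RNAi (log2 1.29, adjusted p = 0.00279), while under mock its log2 change was -0.13 (adjusted p = 0.721). In ttr-12 the values were 25.0 and 22.6 CPM in glp-1 RNAi and 12.5 and 9.29 in N2 RNAi (log2 1.13, adjusted p = 0.00627). Next came ttr-5 (log2 0.79, adjusted p = 0.00827), ttr-29 (log2 1.29, adjusted p = 0.00987) and ttr-56 (log2 1.63, adjusted p = 0.0117), the last at 1.67 and 1.24 CPM in glp-1 RNAi and 0.531 and 0.404 in N2 RNAi. The other 13 called were ttr-1, ttr-33, ttr-45, ttr-2, ttr-35, ttr-27, ttr-23, ttr-16, ttr-40, ttr-51, ttr-7, ttr-34 and ttr-47, and each of these 13 lost its call without N2 RNAi replicate 2. Of the 10 named before these 13, ttr-12 (log2 0.93), ttr-29 (log2 1.39) and ttr-56 (log2 1.45) also lost their calls without N2 RNAi replicate 2. The call on ttr-56 ended without glp-1 RNAi replicate 1 as well (log2 1.41).

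Nearest to the threshold under RNAi stood ttr-47, the fourth most abundant member, on the called side (log2 0.68, adjusted p = 0.0411), and ttr-20 on the other (log2 0.75, adjusted p = 0.0543). The call on ttr-47 held when glp-1 RNAi replicate 2 was left out (adjusted p = 0.00727), held narrowly in the absence of N2 mock replicate 2 (0.0498), and ended without each of the other 6 libraries (0.0508 to 0.295). The 4 members below 0 were ttr-52, ttr-14, ttr-3 and ttr-37, at log2 -1.05, -0.60, -0.58 and -0.27, none of them called. Of the members with the highest levels, ttr-2 and ttr-16 were called with all libraries. The gene ttr-2 had 395 and 303 CPM in glp-1 RNAi and 226 and 132 in N2 RNAi (log2 0.96, adjusted p = 0.0167), and for ttr-16 the values were 385.5 and 356 in glp-1 RNAi and 223 and 258.5 in N2 RNAi (log2 0.62, adjusted p = 0.0206). The call on ttr-2 ended when N2 RNAi replicate 2 was left out (adjusted p = 0.138), and also when glp-1 RNAi replicate 1 was (0.117). The call on ttr-16 ended for N2 RNAi replicate 1 (adjusted p = 0.104) or 2 (0.085) and for glp-1 mock replicate 1 (0.058).

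**Figure D5:**
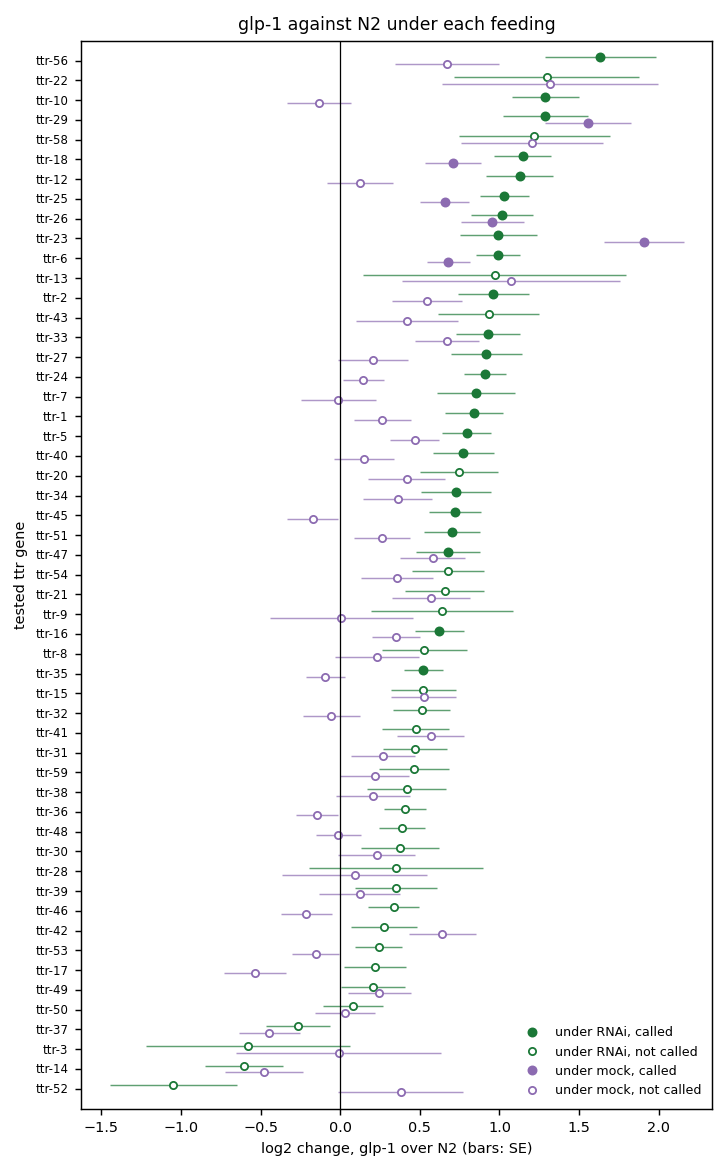
Log2 change of each tested ttr gene in glp-1 over N2 under RNAi (green) and under mock (purple), with its standard error. Filled points passed the threshold, 23 under RNAi and 6 under mock. All filled points lie right of 0, and 49 of 53 points under RNAi do.

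Coding length and scaling touched the strain comparisons. After each library was corrected for its trend with coding length, 14 members were called under RNAi, 13 higher and 1 lower, the median of the members was 0.38, and 43 of 53 were above 0. Under mock the median became 0.10 with 33 above 0. Scaling by library size alone moved the median of all genes to 0.18 under RNAi and 0.13 under mock. The members' median stood 0.66 and 0.26 above it, against 0.65 and 0.26 with TMM. Such scaling applies a common factor to all genes of a library. This distance could therefore hardly move, and its likeness is no check on the shift of the members. With the coding length trend removed the distance was 0.42 under RNAi and 0.13 under mock. Other genes were called between the strains as well, where 18.1% of all genes were called under RNAi and 9.73% under mock. Of 20 genes of the molting cycle 8 were lower and 0 higher in glp-1 under RNAi (median log2 -0.94), among them bli-1 at -2.18 and rol-6 at -2.33, which encode cuticle collagens, and 6 were lower under mock (median -0.51). Their summed level was 272.5 to 291 CPM in glp-1 RNAi and 302 to 314 in glp-1 mock, and 351 to 456 in N2 RNAi and 312 to 429 in N2 mock. Of 16 germline and oocyte genes 7 were lower under RNAi and 4 under mock, with glh-1, which encodes an RNA helicase of germ granules, at log2 -0.71 under RNAi and -1.09 under mock. Hypodermis markers had 2 of 10 lower in both, bli-1 and rol-6, which are also among the molting genes, and their summed level was 3439 to 4099 CPM in glp-1 RNAi and 2501 to 3360 in N2 RNAi. Of 6 sperm markers tested 3 were higher under RNAi (50%, against 10.6% of all genes called higher, median log2 0.83). Under mock 1 was higher (16.7%, against 6.49%, median 0.75). Their summed level was 89.6 to 103 CPM in glp-1 RNAi and 94.0 to 96.5 in glp-1 mock, and 52.55 to 71.0 in N2 RNAi and 57.2 to 77.1 in N2 mock. Body wall muscle markers had 2 of 7 lower and 1 higher under RNAi (42.9% called, against 18.1% of all genes) and 1 lower under mock. Neuron markers had 2 of 11 higher in both, pharynx markers 1 of 8 higher in both and intestine markers 1 of 10 lower in both. Coelomocyte markers had 1 of 3 higher under RNAi and 0 under mock, and glia markers had 0 of 5 called. The part of these lists in the levels of the ttr genes was not tested. In RNA of whole animals fewer cells of a type and less RNA per cell cannot be told apart.

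With RNAi the marker list with called genes was that of the intestine. Of its 10 genes 5 were higher and 0 lower in N2 (50%, against 3.13% of all genes called higher, median log2 0.76). In glp-1 there were likewise 5 higher and 0 lower (50%, against 1.89% of all genes called higher, median 0.53). Lowest in p was asp-1, which encodes an aspartyl protease, at log2 2.54 in glp-1 and 2.35 in N2. The 10 had a summed level of 6378 to 6911 CPM in glp-1 RNAi and 2020 to 2153 in glp-1 mock, and 7204 to 7430 in N2 RNAi and 2271 to 2475 in N2 mock. The part of the intestinal genes in the ttr changes was not tested. The lists of germline, sperm, molting, hypodermis, neuron, glia, pharynx, muscle and coelomocyte genes had 0 members called with RNAi in either strain.

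The 2 members whose roles are described above differed in level. The gene ttr-52 (WBGene00008719, chromosome III from 13404718 to 13405783, plus strand) had 14 and 16 counts in glp-1 RNAi and 21 and 32 in glp-1 mock, and 22 and 36 counts in N2 RNAi against 16 and 19 in N2 mock. Its change with RNAi was 0.74 in N2 (SE 0.39, adjusted p = 0.486) and -0.69 in glp-1 (SE 0.40, adjusted p = 0.607). In N2 both RNAi libraries lay above both mock libraries and in glp-1 below them, and the difference between the strains was the lowest of all members (log2 -1.43), without passing the test. Its strain change was -1.05 under RNAi (SE 0.40, adjusted p = 0.0874) and 0.38 under mock (adjusted p = 0.582). At counts this low, changes of this size were not resolved.

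Of 18 other genes of apoptotic cell engulfment 0 were called with RNAi in either strain or between the strains under mock. Under RNAi 16.7% of them were called, near the 18.1% of all genes in that comparison, 1 higher and 2 lower in glp-1: nrf-5, which encodes a secreted lipid-binding protein that acts with TTR-52 (log2 0.42, adjusted p = 0.0375), ced-7, which encodes an ABC transporter of the same pathway (log2 -0.67, adjusted p = 0.0464), and the dynamin gene dyn-1 (log2 -0.49, adjusted p = 0.0319). The median of the 18 was -0.20 there, and all 3 calls ended without N2 RNAi replicate 2 (adjusted p = 0.145 for nrf-5, 0.240 for ced-7 and 0.267 for dyn-1) and without some other single libraries.

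The gene ttr-33 (WBGene00016505, chromosome V from 7837093 to 7837909, minus strand) had 16.6 and 16.6 CPM in glp-1 RNAi and 15.3 and 14.4 in glp-1 mock, and 8.76 and 8.66 CPM in N2 RNAi against 11.3 and 7.35 in N2 mock. All 4 glp-1 libraries were above all 4 N2 libraries. Its strain change was 0.93 under RNAi (SE 0.20, adjusted p = 0.0129) and 0.67 under mock (SE 0.20, adjusted p = 0.0578). The call under RNAi ended without N2 RNAi replicate 2 (0.0933), and after correction for the coding length trend (0.0625). With RNAi its change was -0.10 in N2 (adjusted p = 0.923), which turned to 0.25 without N2 mock replicate 1, and 0.16 in glp-1 (adjusted p = 0.83). Its span overlaps those of mig-6 and txt-5.

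Of 6 genes listed for dopamine neurons, bas-1, which encodes an aromatic amino acid decarboxylase, was lower with RNAi in N2 (log2 -0.61, adjusted p = 0.0323) and higher in glp-1 under RNAi (log2 0.48, adjusted p = 0.041). The vesicular monoamine transporter gene cat-1 was higher in glp-1 under RNAi (log2 0.83, adjusted p = 0.0281). Averaged over the strains the calreticulin gene crt-1 was higher with RNAi (log2 0.47, adjusted p = 0.0183) and bas-1 lower (log2 -0.39, adjusted p = 0.0421). These calls on bas-1, cat-1 and crt-1 all ended without N2 RNAi replicate 2 (adjusted p from 0.075 to 0.323) and without some other single libraries. No gene of the list was called with RNAi in glp-1 (2.7% of all genes). Of the 6, 16.7% were called with RNAi in N2 (4.79% of all genes) and 33.3% averaged over the strains (6.27%). Between the strains under RNAi 33.3% were called (18.1% of all genes). In RNA of whole animals the cells that these RNAs came from cannot be told. Of the 2 genes of the other transthyretin-related type, which resemble hydroxyisourate hydrolase, 1 was tested and it was not called in any comparison, with log2 changes from 0.02 to 0.36.

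The introns of the members gave few counts. Of the 57 members 7 passed the filter on intron counts, namely ttr-2, ttr-15, ttr-17, ttr-26, ttr-37, ttr-45 and ttr-51. With RNAi 0 of the 7 were called by edgeR in glp-1 (0.694% of all 5042 genes tested) and 0 in N2 (1.07%). Between the strains 0 were called under RNAi (0.516%) and 0 under mock (0.417%). At an unadjusted p under 0.05 there were 1 in glp-1, 3 in N2, 2 between the strains under RNAi and 2 under mock, and DESeq2 and limma called 0 in each of these comparisons. The 3 in N2 were of mixed direction. The introns of ttr-26 were higher with RNAi (log2 2.25, adjusted p = 0.237 by edgeR), and those of ttr-37 (log2 -1.74, adjusted p = 0.723) and ttr-51 were lower. The introns of ttr-51 had 60 and 47 in glp-1 RNAi and 102 and 108 in glp-1 mock, and 25 and 30 in N2 RNAi and 69 and 41 in N2 mock. Its log2 change was -0.83 in glp-1 (adjusted p = 0.395) and -0.99 in N2 (adjusted p = 0.267). Averaged over the strains, a comparison of introns looked at after its values were seen, ttr-51 was lower with RNAi (log2 -0.91, adjusted p = 0.0255), where 2.08% of all genes were called. That call ended without N2 RNAi replicate 1 (adjusted p = 0.150), N2 mock replicate 1 (0.107), glp-1 RNAi replicate 2 (0.135) and glp-1 mock replicate 1 (0.103) or 2 (0.203). The introns of ttr-45 had 13 and 0 counts in N2 RNAi and 19 and 3 in N2 mock, too few to set beside the fall of its coding counts.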

How the data were processed

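Total RNA of whole worms was made into 8 libraries with ScriptSeq v2, per the labels' protocols. The authors deposited raw counts of coding parts and of introns for each gene, per the file headers and names. They also deposited log2 values, and these equal log2(count × mean library total / library total + 8), as computed from both tables. No aligner, genome build, annotation or counter is named in the sources used here. Widths in the table were whole codons (multiples of 3) in 96.6% of cases and are called coding length. Library totals were 26127079 to 30093967 coding counts and 464385 to 684124 intron counts, and floors cover counting error only.

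Symbols came from a WormBase name table (18778 of 20182 IDs) and positions from Ensembl. The filterByExpr filter (minimum count 10) left 15321 genes for coding counts and 5042 for introns. After TMM scaling, edgeR 4.0.16 in R 4.3.3 fitted all 4 groups at once (quasi-likelihood, robust, 4 residual degrees of freedom, two-sided F test, no replicate block), over whole tables, with Benjamini-Hochberg adjustment and a threshold of 0.05. The fits were also run on simulated counts with known changes, for RNAi against mock in N2 alone, and the outcome is not given here. Those counts held no shift shared by genes of a replicate and no trend with coding length. That run therefore cannot speak to either feature. Groups of 2 libraries allow no test for outlying samples. Sequences were not used here.

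Members, lists and tests were chosen with earlier results of these data known. Named were ttr-52 and ttr-33, the 5 members with the highest coding-length-scaled level, up to 10 called members in each direction per comparison, those nearest the threshold, and up to 3 called genes of the other lists. Genes beside a named member on the chromosome, and values of a named member in further comparisons, were added after their values were seen. Alternatives were RLE size factors, library size alone, no filter, DESeq2 1.42.0, limma 3.58.1 on the log2 values, the compared groups alone (not run for the mean and the difference of the strains), a replicate block, removal of each library's coding length trend, and each library left out.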

Additional observations from a re-analysis of the deposited data

How the results depend on the processing

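The number of ttr genes called moved by over 1.5 times under the following settings. With RNAi in N2, where 5 were called, it was 8 with library size alone, 9 with DESeq2, 9 with limma and 2 with the compared groups alone, and from 1 to 8 with a library left out. With RNAi in glp-1, where 0 were called, it was 1 without the filter, 2 with DESeq2, 1 with the coding length trend removed and from 0 to 3 with a library left out. For the mean of the strains, where 4 were called, it was 7 with the coding length trend removed and from 3 to 8 with a library left out, and for the difference of the strains it was 0 to 1. Between the strains under mock, where 6 were called, it was 10 with limma, 15 with the compared groups alone (13 higher and 2 lower) and 2 to 11 with a library left out. Under RNAi, where 23 were called, it was 11 with the compared groups alone, 14 with the coding length trend removed and 7 to 29 with a library left out. For introns, in RNAi against mock in each strain and between the strains under each feeding, it was 1 between the strains under mock without the filter, and 0 to 0 with a library left out. The causes of these moves were not tested, and some of the fits hold fewer libraries.

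Nothing in the labels pairs libraries by replicate number. Deviations from the group means correlated across genes at 0.17 between N2 RNAi and N2 mock and at -0.04 between glp-1 RNAi and glp-1 mock. With a replicate block 6 members were called with RNAi in N2, 0 in glp-1, 6 for the mean of the strains and 0 for their difference, and 7 and 26 between the strains under mock and RNAi. Among the alternative values of named members 537 kept their direction and their side of the threshold, 50 lost and 30 gained a call, and 1 changed sign, ttr-33 with RNAi in N2, which ran from -0.37 without N2 mock replicate 2 to 0.25 without N2 mock replicate 1. Ranked by CPM without coding length, ttr-51 was at place 7 in place of 5. At low counts precision was limited, as the standard errors of ttr-52 show.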
